A study of Mus musculus with 10 samples.

Results

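The 10 genes described here, Atf4, Atf3, Atf5, Ddit3, Trib3, Asns, Chac1, Sesn2, Ddit4 and Nupr1, are a core of the integrated stress response: the transcription factor ATF4 and a set of genes widely read as its outputs. They were picked by gene symbol from the deposited count table, with earlier results of these data known. All 10 were found among 24470 gene entries, and all 10 had enough counts to enter a test of 13941 genes. The RNA came from testes of C57BL/6 mouse embryos, for which the labels name no mutation, taken at E12.5 with the mesonephros attached and kept in organ culture for 48 h. The study asked what blocking glycogen breakdown does to the differentiating gonad. One group of 5 testes received 75 µM GPI, an inhibitor of the glycogen phosphorylases, and the other 5 received only the vehicle, DMSO. Each of 5 embryos, called mice M1 to M5, gave 1 gonad to each group, so that the groups differ in the inhibitor and share strain, age and culture. Every gonad was freed from the mesonephros after culture and gave 1 library, so RNA of whole gonads, with all their cell types, was counted.

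The integrated stress response starts when stress kinases phosphorylate the translation initiation factor eIF2, which lowers protein synthesis in general while the mRNA of Atf4 is translated more. ATF4, a basic leucine zipper (bZIP) protein, then pairs with C/EBP proteins and turns on genes for amino acid synthesis, amino acid uptake and tRNA charging, together with further transcription factors and feedback inhibitors. Much of its control lies in translation, and RNA counts report neither eIF2 phosphorylation nor ATF4 protein.

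The libraries held 10203679 to 15590223 counts with vehicle and 11025409 to 15635322 with GPI. Values below are normalized counts, that is counts brought to a common TMM-scaled library size, the mean of the 10. Markers of the fetal testis were present. Of 8 Sertoli cell genes, none was at 0 in any library, and Sox9, the gene of this list with the most counts (not scaled by length), stood at 1121, 1545, 984, 1185 and 1321 normalized counts with vehicle and at 1494, 1938, 1833, 2141 and 1836 with GPI in mice M1 to M5. Insl3, a hormone gene of Leydig cells, was close to absent, with at most 7 counts in a library. In a principal component analysis of the 500 most variable genes, PC1 (78.1% of the variance) separated the treatments, while on PC2 (5.33%) the GPI-treated testis of M1 stood apart at 19.6, its vehicle-treated partner followed at 8.15, and the other 8 libraries lay between -6.15 and 2.15. Values without mouse M1 are therefore given beside the results for the core genes.

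All 13941 genes were compared between treatments with the quasi-likelihood F test of edgeR at a Benjamini-Hochberg FDR of 0.05 and the mouse in the design, and "called" below means past that threshold. Of the 10 core genes, 6 were higher with GPI (Atf4, Atf5, Trib3, Asns, Sesn2 and Nupr1), 1 was lower (Ddit4) and 3 were not called (Atf3, Ddit3 and Chac1). Among all tested genes, 11.1% were called higher and 11.9% lower (1544 and 1654 genes). These counts moved to 1238 and 1972 with total counts as the only scaling, and to 969 and 1347 without M3. The median log2 fold change was 0.83 over the core genes and 0.02 over all tested genes. For the same 6 genes every GPI-treated testis exceeded every vehicle-treated testis, a separation that 7.07% of all tested genes showed upward and 9.05% downward. Because the core genes were chosen with earlier results of these data known, their shares describe the list and were not tested against those of all genes. Without mouse M1, 6 core genes were again called higher and 1 lower. Called genes named below moved in the stated direction in 5 of 5 mice, except Nfe2l1, Sesn3, Atf7, Fkbp5 and the hypoxia genes other than Ankrd37, which did so in 4 of 5.

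**Figure D1:**
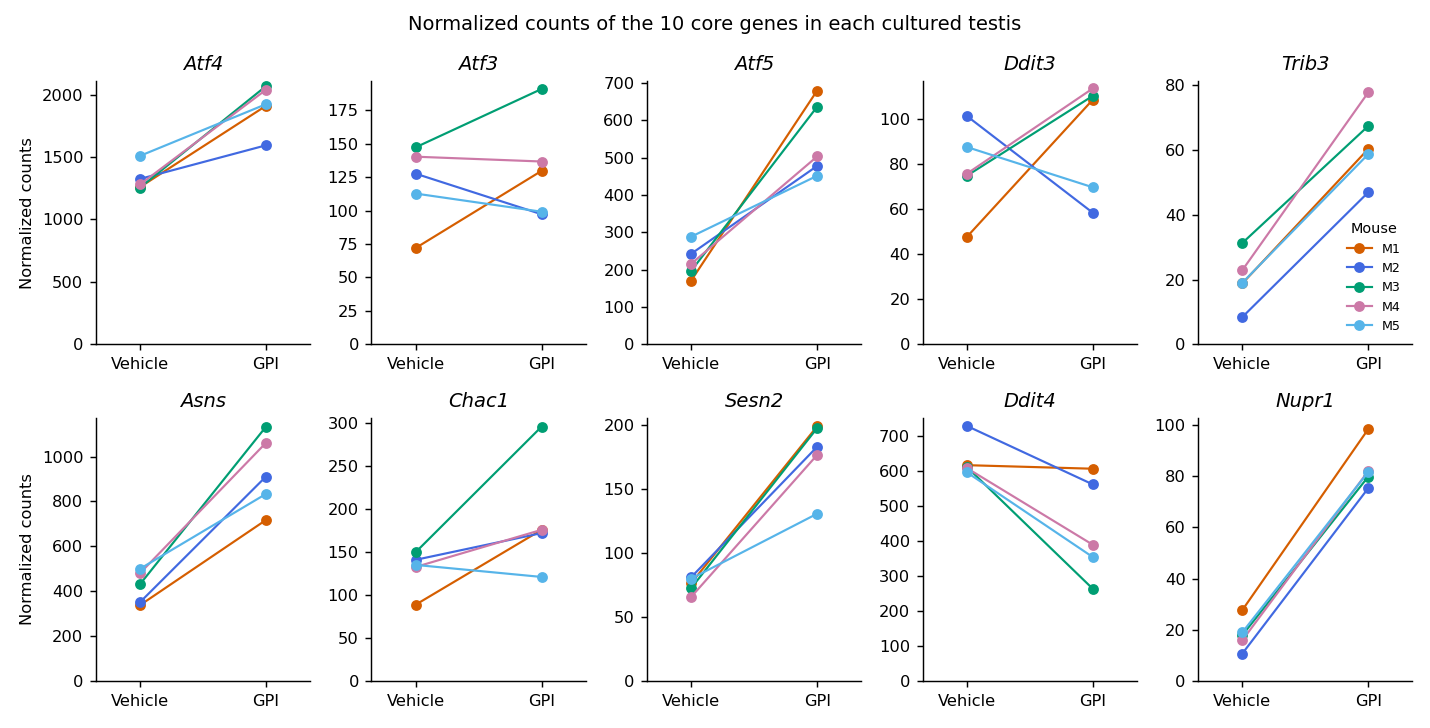
Normalized counts (y axis, from 0) of each core gene in the 10 libraries by treatment (x axis), with a line joining the gonads of 1 mouse. Lines for Atf4, Atf5, Trib3, Asns, Sesn2 and Nupr1 run upward in 5 of 5 mice with no overlap between treatments, Ddit4 runs downward, and the lines of Atf3 and Ddit3 cross.

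Atf4 (Entrez Gene 11911, chr15:80255184-80257545 on the plus strand of mm10) is the transcription factor at the center of the pathway. With vehicle its normalized counts were 1259, 1324.5, 1255, 1280 and 1509 in mice M1 to M5, and with GPI they were 1910.5, 1594, 2068, 2039 and 1923. The lowest GPI-treated testis, that of M2, lay just above the highest vehicle-treated one, that of M5, so the groups did not overlap although the rise was modest. This was a log2 fold change of 0.52 (SE 0.08, n = 5 pairs, edgeR adjusted p = 0.000441), higher in 5 of 5 mice, and 0.48 without M1. Per transcript length Atf4 was the most abundant core gene in either group, at 62.3 CPM (counts scaled to library size) per kb with vehicle and 89.6 with GPI.

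The eIF2 kinases stand upstream of ATF4. Of 7 genes for the eIF2 kinases and their inputs, edgeR called 0 in either direction, and so did DESeq2 and limma-voom; at an unadjusted p under 0.05 there was 1, Eif2ak2. The log2 fold change was 0.19 for Eif2ak2 (PKR, which senses double-stranded RNA), -0.19 for Eif2ak1 (HRI, linked to heme and mitochondrial stress), -0.15 for Eif2ak3 (PERK, the kinase of the endoplasmic reticulum) and -0.08 for Eif2ak4 (GCN2, which senses uncharged tRNA), with SE of these 4 from 0.08 to 0.13 and edgeR adjusted p from 0.11 to 0.682. Leaving out M2 turned the sign of Eif2ak4, to 0.02. The median over this list was 0.07.

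Among 8 subunits of eIF2 and of its exchange factor eIF2B, Eif2s2 (eIF2 beta) was called higher at 0.32 on the log2 scale (edgeR adjusted p = 0.0052) and Eif2b2 (eIF2B beta) lower at -0.57 (edgeR adjusted p = 0.0231). Both calls depended on single mice: Eif2s2 was not called without M3 (adjusted p = 0.0573), nor Eif2b2 without M2, M3 or M4 (adjusted p = 0.0792, 0.0837 and 0.0737). Of 5 genes whose products damp the response, Impact, an inhibitor of GCN2 activation, rose by 0.38 (edgeR adjusted p = 0.00513) from 616, 524, 719, 668 and 584 normalized counts with vehicle to 840.5, 755, 991, 746 and 731 with GPI in M1 to M5. No library of Impact overlapped between treatments. Dnajc3, a chaperone that inhibits PERK and PKR, was called at 0.24 (edgeR adjusted p = 0.0396), but not without M1, M3, M4 or M5 (adjusted p from 0.0668 to 0.166), with total counts only (0.104) or with no low-count filter (0.0567). Ppp1r15a, the phosphatase subunit GADD34 that reverses eIF2 phosphorylation and is itself an ATF4 output, had a log2 fold change of -0.11 (SE 0.21, edgeR adjusted p = 0.773).

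The 3 other bZIP factors of the core did not move together. Atf5 (Entrez Gene 107503), whose mRNA is translated under the same control as that of Atf4, had 170.5, 242, 196.5, 215 and 288 normalized counts with vehicle and 679, 477.5, 636, 503 and 451 with GPI in M1 to M5. Every GPI value lay well above the highest vehicle value, and M1, the lowest with vehicle, was the highest with GPI. Its log2 fold change was 1.30 (SE 0.17, n = 5 pairs, edgeR adjusted p = 6.63e-05) and 1.11 without M1. Atf5 overlaps Nup62 and Il4i1b on the other strand, and the counting did not use strand, so reads in the shared stretch cannot be told apart. Nup62, a nuclear pore gene, had a log2 fold change of 0.04 (edgeR adjusted p = 0.807), which turned to -0.02 without M1, and Il4i1b had too few counts to be tested.

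Atf3 (Entrez Gene 11910), a stress-induced factor that also answers to other signals, had 72.0, 128, 147, 140.4 and 113 normalized counts with vehicle and 129.8, 97.3, 191, 137 and 99.2 with GPI in M1 to M5. It was higher with GPI in 2 of 5 mice, by most in M1, and the groups overlapped almost entirely. Ddit3 (Entrez Gene 13198), which encodes CHOP, a C/EBP-family factor tied to death under prolonged stress, had 47.6, 101, 74.8, 75.7 and 87.6 with vehicle and 109, 58.4, 110.3, 114 and 69.7 with GPI. It rose in M1, M3 and M4 and fell in M2 and M5, so its groups overlapped as well. The log2 fold change was 0.11 (SE 0.19, edgeR adjusted p = 0.729) for Atf3 and 0.23 (SE 0.26, edgeR adjusted p = 0.585) for Ddit3. Without M1 both estimates changed sign, to -0.07 and -0.00523. Ddit3 (chr10:127290793-127296288) overlaps Mars1 (chr10:127296221-127311786), a tRNA synthetase gene on the other strand, only at the ends of both entries. Mars1 was called higher (log2 fold change 0.52, edgeR adjusted p = 0.000206), and reads in the short stretch that both genes share cannot be assigned.

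Of 11 further bZIP proteins that can pair with ATF4 or bind related sites, 4 were called higher and the other 7 were not called, with a median log2 fold change of 0.28. Cebpa, better known from fat and myeloid cells, had 28.8, 33.4, 58.1, 15.9 and 61.7 normalized counts with vehicle and 69.4, 99.7, 108, 139 and 102 with GPI in M1 to M5, and Jdp2, a repressor of AP-1 sites, had 39.9, 27.4, 56.9, 56.8 and 58.7 with vehicle and 96.3, 113, 131, 143 and 123 with GPI. Neither gene overlapped between treatments. On the log2 scale the change was 1.45 (SE 0.30, edgeR adjusted p = 0.00291) for Cebpa, 1.36 (SE 0.20, edgeR adjusted p = 0.000197) for Jdp2 and 0.54 (SE 0.11, edgeR adjusted p = 0.00245) for Cebpg, a known dimer partner of ATF4. The last of the 4, Nfe2l1, a regulator of proteasome genes, was named after its values were seen. It had 0.35 (edgeR adjusted p = 0.0184) and was not called without M2, M3 or M4 (adjusted p = 0.0702, 0.128 and 0.0628).

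Nupr1 (Entrez Gene 56312), a small chromatin-associated protein induced by many stresses, showed the largest fold change of the core genes. With vehicle its normalized counts were 27.7, 10.7, 17.9, 15.9 and 19.0 in M1 to M5, and with GPI they were 98.5, 75.4, 79.9, 82.1 and 81.7. The GPI-treated testes lay close together, far above all vehicle-treated ones. On the log2 scale the fold change was 2.22 (SE 0.25, n = 5 pairs, edgeR adjusted p = 2.53e-05), a 4.65-fold rise, and 2.31 without M1.

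Trib3 (Entrez Gene 228775) encodes a pseudokinase that binds ATF4 and limits it. With vehicle it was the least abundant core gene per transcript length, and its normalized counts were 18.8, 8.4, 31.3, 22.9 and 19.0 in M1 to M5. With GPI they were 60.4, 47.0, 67.5, 77.9 and 58.8, and the lowest of these, that of M2, exceeded the highest vehicle value, that of M3. Its log2 fold change was 1.68 (SE 0.29, n = 5 pairs, edgeR adjusted p = 0.000671) and 1.66 without M1. The related pseudokinases moved in opposite directions. Trib2 went from 997, 1139.6, 1445, 1000.1 and 1526 normalized counts with vehicle to 1622, 1719.5, 1945.5, 2337 and 2028 with GPI, a log2 fold change of 0.67 (edgeR adjusted p = 0.000418), and Trib1 from 339.9, 412, 327, 311 and 287 to 153, 223, 152, 155 and 220.1, a log2 fold change of -0.90 (edgeR adjusted p = 0.000208). No library of either gene overlapped between treatments. Per transcript length Trib2 remained far more abundant, at 37.3 CPM per kb with GPI against 3.38 for Trib1 and 2.49 for Trib3.

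Asns (Entrez Gene 27053), asparagine synthetase, makes asparagine from aspartate with glutamine as the nitrogen donor and is a classic target of ATF4 under amino acid shortage. It had 338, 351, 431, 480.1 and 499.8 normalized counts with vehicle and 717, 911, 1133, 1062 and 834 with GPI in M1 to M5. All GPI-treated testes were higher than all vehicle-treated ones, with M1 the lowest in each group. Asns had the smallest adjusted p of the core genes: its log2 fold change was 1.15 (SE 0.11, n = 5 pairs, edgeR adjusted p = 3.44e-06), 1.14 without M1.

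Chac1 (Entrez Gene 69065), an enzyme that breaks down glutathione, had 88.6, 141, 149.6, 132.5 and 135 normalized counts with vehicle and 176, 172, 296, 176 and 121 with GPI. It was higher in 4 of 5 mice, with M3 far above the rest under GPI, while the GPI-treated testis of M5 fell within the vehicle range. The log2 fold change of 0.50 (SE 0.18, edgeR adjusted p = 0.0598) missed the threshold. It was 0.37 without M1 (adjusted p = 0.184), whereas without M5 it passed at 0.66 (adjusted p = 0.0198). Limma-voom and the fit with no low-count filter also called it (adjusted p = 0.0491 and 0.0363), and over all alternatives that kept 5 mice its adjusted p ran from 0.0363 to 0.0931.

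**Figure D2:**
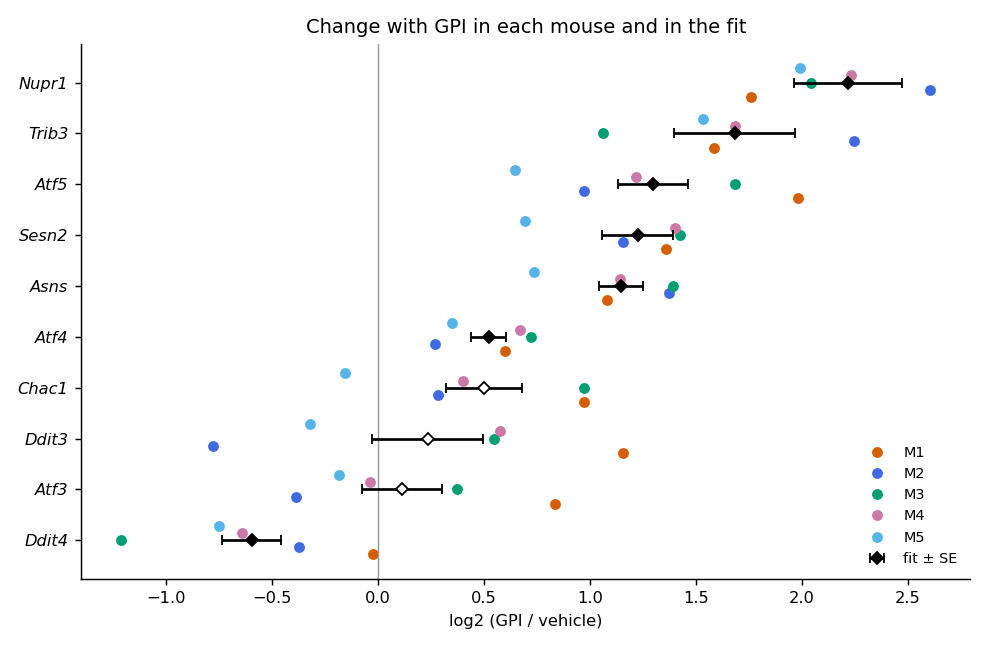
Log2 ratio of GPI to vehicle (x axis) for each core gene (y axis), with 1 colored point per mouse and a diamond for the edgeR log2 fold change with its SE, filled where called. Nupr1, Trib3, Atf5, Sesn2, Asns and Atf4 lie to the right of 0 in 5 of 5 mice, and Ddit4 lies to the left with M1 next to 0.

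Sesn2 and Ddit4 both restrain the growth kinase mTORC1, and they moved in opposite directions. Sesn2 (Entrez Gene 230784), a leucine-sensing inhibitor that acts through GATOR2, had 76.4, 81.1, 72.6, 65.7 and 80.0 normalized counts with vehicle and 199, 183, 198, 177 and 131 with GPI in M1 to M5. The vehicle values were tight and every GPI value was clearly above them, M5 by the least. Its log2 fold change was 1.22 (SE 0.17, n = 5 pairs, edgeR adjusted p = 0.00011), 1.17 without M1. Ddit4 (Entrez Gene 74747), which encodes REDD1 and acts through the TSC complex, had 617, 729, 612, 609 and 596.5 with vehicle and 607, 562, 263, 389 and 354 with GPI. The fall was deepest in M3 and close to nothing in M1, whose GPI-treated testis lay inside the vehicle range. The log2 fold change was -0.60 (SE 0.14, n = 5 pairs, edgeR adjusted p = 0.00652), lower in 5 of 5 mice, and -0.76 without M1 (adjusted p = 0.000545).

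Of 18 tested genes of the mTORC1 control list, which holds paralogs of both, 2 were called higher and 1 lower, with a median of 0.09. Ddit4l, the paralog of Ddit4, rose by 0.58 (SE 0.12, edgeR adjusted p = 0.00314) in 5 of 5 mice, against the direction of Ddit4. Sesn3 was called at 0.33 (edgeR adjusted p = 0.0335), Deptor, an mTOR-binding inhibitor, at -0.33 (edgeR adjusted p = 0.0338), and Sesn1, at 0.15 (edgeR adjusted p = 0.248), was not called. Sesn3 was not called without M2, M4 or M5 (adjusted p = 0.0987, 0.0836 and 0.0848) or with total counts as the only scaling (adjusted p = 0.0719), and Deptor was not called without M2, M3 or M5 (adjusted p = 0.0702, 0.0517 and 0.14) or with no replicate block (adjusted p = 0.0642). Per transcript length Sesn1 and Sesn3 were the abundant sestrins, at 16.4 and 12.4 CPM per kb with vehicle against 1.75 for Sesn2. Over all 13 tested paralogs of the core genes, 3 were called higher (Trib2, Sesn3 and Ddit4l) and 2 lower (Trib1 and Atf7), with a median of 0.15. Atf7, a CREB-related factor, had -0.30 (edgeR adjusted p = 0.0181) and was not called without M2, M3 or M4 (adjusted p = 0.059, 0.0623 and 0.0719).

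Ddit4 is also known as a target of hypoxia-inducible factors, and 10 hypoxia genes are set beside it for that reason. Their summed level was 13128, 12720, 9913, 9485 and 11420 normalized counts with vehicle and 18479, 4996, 3245, 3441 and 4036 with GPI in M1 to M5. In M1 the sum rose, and in the other 4 mice it fell far below any vehicle-treated testis. Vegfa, an angiogenic factor with the most counts of the list, had 4975, 5144, 4256, 3698.5 and 4873 with vehicle and 7539, 2217, 1521, 1413 and 1719 with GPI, the same pattern. Of the 10 genes, 9 were called lower, with a median log2 fold change of -1.13. With no replicate block only 1 of them was called. Egln3, an oxygen-sensing hydroxylase, fell by 2.27 (edgeR adjusted p = 0.00181), Adm, the vascular peptide adrenomedullin, by 1.79 (edgeR adjusted p = 0.00137) and P4ha1, a collagen hydroxylase, by 0.86 (edgeR adjusted p = 0.00246) on the log2 scale. Without M1 these values were -3.02, -2.31 and -1.12, and that of Vegfa moved from -1.02 to -1.41. With no replicate block Egln3, P4ha1 and Vegfa were not called (adjusted p = 0.0617, 0.104 and 0.216). Car9, the gene of the list that was not called, had 0.01 (edgeR adjusted p = 0.992), and -0.23 without M1. The part of these genes in the fall of Ddit4 was not tested.

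**Figure D3:**
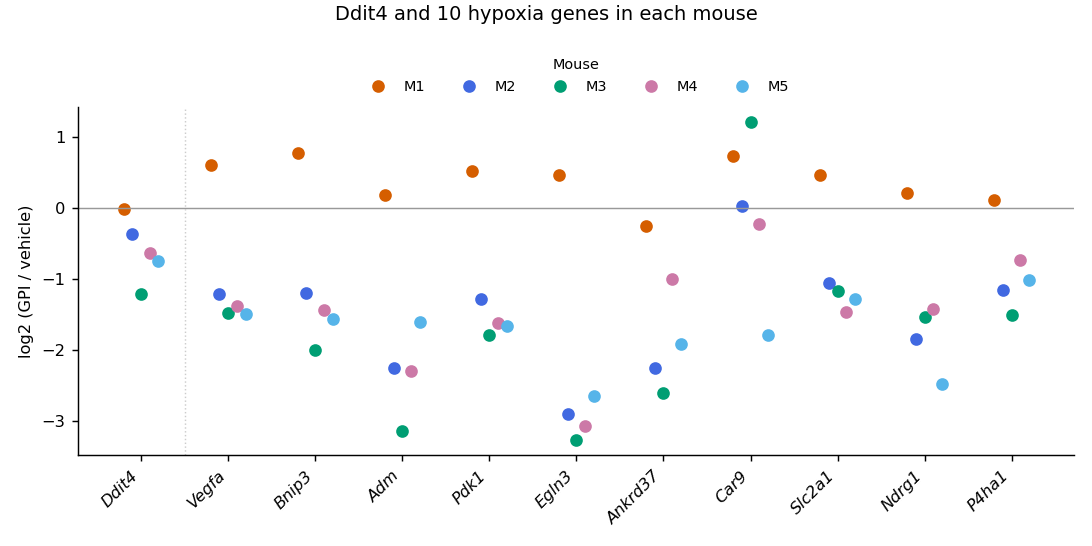
Log2 ratio of GPI to vehicle (y axis) in each mouse (colored points) for Ddit4 and the 10 hypoxia genes (x axis). M1 lies at or above 0 for most of these genes, from -0.26 for Ankrd37 to 0.77 for Bnip3, while the other 4 mice lie below 0 for every gene but Car9.

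Other inputs known for core genes were examined as well. Of 6 tested glucocorticoid-responsive genes, which stand here because glucocorticoids also induce Ddit4, Fkbp5, a chaperone of the receptor, was called higher (0.31 on the log2 scale, edgeR adjusted p = 0.0337) and the other 5 were not called, with a median of 0.04. The call on Fkbp5 was lost without M1, M3, M4 or M5 (adjusted p from 0.067 to 0.156), with no replicate block (0.0571) and with total counts only (0.079). Of 10 genes of the p53 pathway, which reaches sestrins and Ddit4 as well, 5 were called higher and 1 lower, with a median of 0.21. The other 4, Trp53 itself, Cdkn1a, Bax and Sesn1, were not called. Trp53 had -0.26 (edgeR adjusted p = 0.13, lower in 3 of 5 mice) and Cdkn1a -0.28 (edgeR adjusted p = 0.26, lower in 4 of 5 mice). Ccng1, which encodes cyclin G1, had 2424, 1804, 2009, 2119.7 and 1754 normalized counts with vehicle and 3758, 3735, 4834, 4543 and 3138 with GPI in M1 to M5, with no overlap. Its log2 fold change was 0.98 (edgeR adjusted p = 2.94e-06), next to 0.79 for Trp53inp1, a nuclear p53 cofactor (edgeR adjusted p = 1.66e-05), and 0.61 for Eda2r, a member of the TNF receptor family (edgeR adjusted p = 0.0023). Phlda3, an AKT inhibitor, was lower at -0.54 (edgeR adjusted p = 0.0281), a call lost without M3, M4 or M5 (adjusted p = 0.0999, 0.0729 and 0.0813). Of 11 immediate early genes, the class to which Atf3 also belongs, 2 were called lower, with a median of -0.33: Dusp1, a MAP kinase phosphatase, at -1.24 (edgeR adjusted p = 0.000131), and Ier3, a survival regulator, at -1.27 (edgeR adjusted p = 0.00194). Without M1, 4 of them were called lower.

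Genes known as ATF4 outputs in amino acid metabolism were examined beside the core. Of 12 tested enzymes of amino acid synthesis and folate metabolism, 10 were called higher, with a median log2 fold change of 1.02, and Pycr1 and Pck2 were not called. Aldh1l2, a mitochondrial enzyme of folate metabolism, had 292, 183, 204, 180.3 and 248 normalized counts with vehicle and 1021, 983, 1634, 1226 and 912 with GPI in M1 to M5. Its lowest GPI value was far above its highest vehicle value. Its log2 fold change was 2.37 (SE 0.16, edgeR adjusted p = 2.24e-07), above that of every core gene. It was 1.38 for Mthfd2, another mitochondrial folate enzyme (edgeR adjusted p = 3.03e-05), 1.08 for Phgdh, the entry step of serine synthesis (edgeR adjusted p = 0.00111), and 0.99 for Got1, an aspartate aminotransferase (edgeR adjusted p = 2.22e-05).

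Of 9 amino acid transporter genes, 6 were called higher, with a median of 0.83. Slc7a11, the cystine and glutamate exchanger, had 29.9, 37.0, 97.1, 56.8 and 92.9 normalized counts with vehicle and 179, 194, 349.9, 284 and 194 with GPI in M1 to M5, without overlap. Log2 fold changes were 1.99 (SE 0.21, edgeR adjusted p = 1.19e-05) for Slc7a11, 2.48 (SE 0.29, edgeR adjusted p = 3.36e-05) for Slc7a3, a carrier of cationic amino acids, and 1.16 (SE 0.13, edgeR adjusted p = 2.28e-05) for Slc1a4, a carrier of small neutral amino acids. Slc7a5, Slc1a5 and Slc38a2 were not called, at 0.32, -0.20 and 0.11, and Slc7a5 passed without M2 (0.41, edgeR adjusted p = 0.016). Of 13 genes for cytosolic tRNA synthetases and the tRNA exporter Xpot, 12 were called higher, with a median of 0.42. Aars, the alanyl-tRNA synthetase gene, had 524, 595, 534, 538 and 592 with vehicle and 998, 1017, 1159, 976 and 828 with GPI, a log2 fold change of 0.83 (edgeR adjusted p = 2.89e-05), and Yars, for tyrosine, had 0.77 (edgeR adjusted p = 0.000294). Wars, for tryptophan, was not called (-0.02, edgeR adjusted p = 0.944, and 0.07 without M4 and 0.01 without M5).

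Of 13 tested genes from a mixed list of other ATF4-linked outputs, 6 were called higher and 2 lower, with a median of 0.29. Among the 6, Cebpg and Jdp2 were already counted with the bZIP proteins above. Herpud1, a factor of protein degradation at the endoplasmic reticulum, rose by 0.86 (SE 0.14, edgeR adjusted p = 0.000522). The 2 lower genes, Vegfa and Ndrg1, also belong to the hypoxia list, and Ndrg1 had -1.38 (edgeR adjusted p = 0.00259). With no replicate block neither was called (adjusted p = 0.216 and 0.138). The secreted stress hormones Gdf15 and Fgf21 had too few reads to be tested: Gdf15 had 1, 1, 0, 1 and 0 raw counts with vehicle and 9, 7, 2, 6 and 3 with GPI in M1 to M5, and Fgf21 had 4, 0, 0, 0 and 0 with vehicle and 5, 2, 1, 6 and 5 with GPI. Of 16 genes from the IRE1 and ATF6 branches of the unfolded protein response, which do not run through eIF2, 7 were called higher, with a median of 0.29. Hspa5, the chaperone BiP, had 8585, 7551, 7861, 9114 and 8451 normalized counts with vehicle and 12246.5, 10919.5, 10700.2, 12847 and 11707 with GPI, again without overlap. Its log2 fold change was 0.49 (edgeR adjusted p = 4.14e-05), beside 0.59 for the chaperone Hyou1 (edgeR adjusted p = 0.00258) and 0.30 for Hsp90b1 (edgeR adjusted p = 0.00242).

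**Figure D4:**
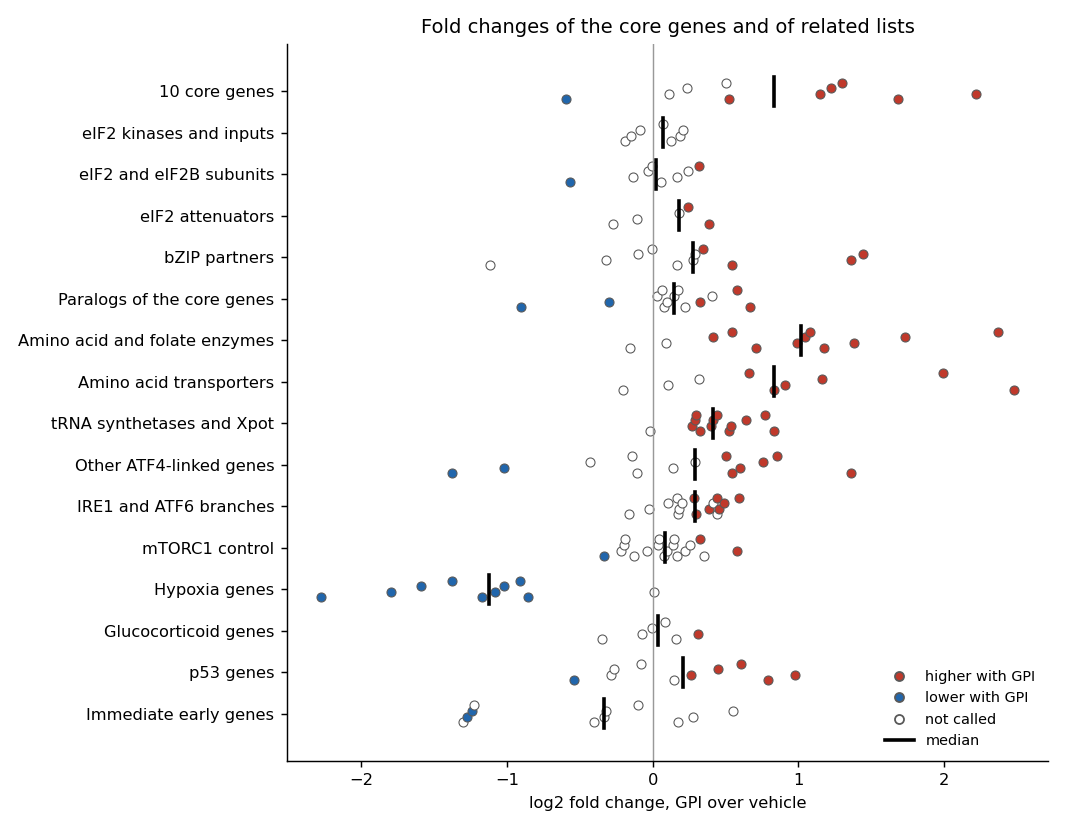
Log2 fold change (x axis) of each tested gene of the core and of 15 related lists (y axis), red where called higher, blue where called lower and white where not called, with a black bar at each list's median. The medians of the amino acid enzymes (1.02), the transporters (0.83) and the core genes (0.83) lie farthest to the right, and that of the hypoxia genes (-1.13) farthest to the left.

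Ranked by level per transcript length, the core genes stood with vehicle in the order Atf4 (62.3 CPM per kb), Ddit4 (29.2), Asns (17), Atf5 (10.4), Ddit3 (7.05), Chac1 (6.4), Atf3 (4.9), Nupr1 (1.78), Sesn2 (1.75) and Trib3 (0.803). Neighbors from Atf5 down to Atf3, and the pair Nupr1 and Sesn2, overlapped between libraries, and the other neighbors did not. With GPI the order was Atf4 (89.6), Asns (37.7), Atf5 (25.7), Ddit4 (20.1), Chac1 (9.31), Ddit3 (8.39), Nupr1 (8.16), Atf3 (5.34), Sesn2 (4.14) and Trib3 (2.49). There Atf4 alone was clear of its neighbor, while the ranges of all other neighbors overlapped.

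**Figure D5:**
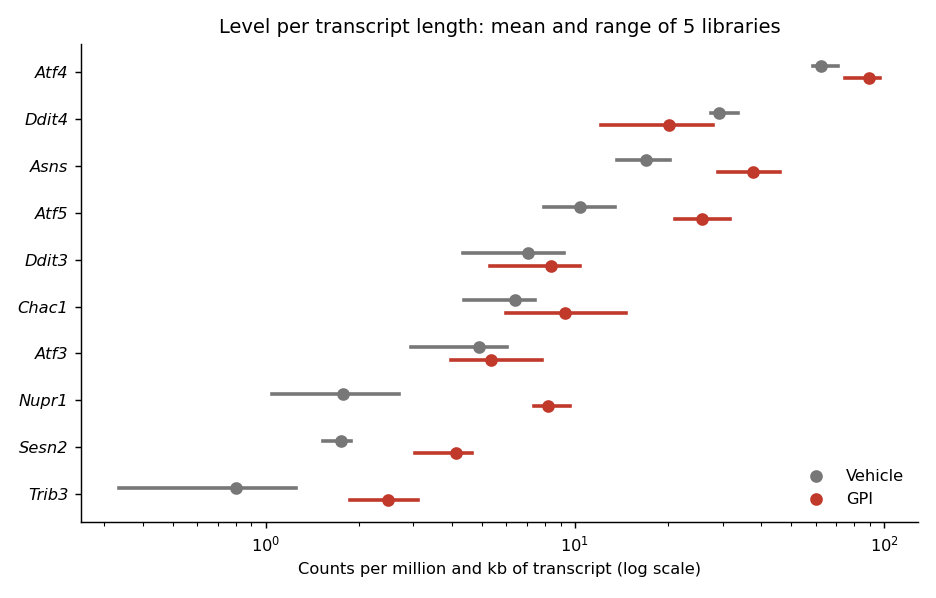
Level of each core gene (y axis) in CPM per kb of transcript on a log axis (x axis), as the mean (point) and range (line) of 5 libraries per treatment. Ddit4 stands next to Atf4 with vehicle and falls behind Asns and Atf5 with GPI.

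Promoters of core genes were searched for short sequences known from ATF4 targets. Windows from 250 bases before to 50 bases after the annotated start were taken from RefSeq (build GRCm38.p6), where all 10 core genes were found, and were searched on both strands for TGATGNAA, the C/EBP-ATF response element, and for TGACGTCA, the cAMP response element. TGATGNAA occurred in 5 of the 10 core genes (Atf3, Trib3, Asns, Chac1 and Nupr1), against 3.97% of all 32851 promoters and 2.8% of the tested genes that had one. TGACGTCA occurred in 0 of 10, against 1.79% of all promoters and 3.48% of the tested genes that had one. A match describes these letters in this window and is not evidence of binding. The whole windows of Asns (chr6:7693160-7693459, minus strand), Trib3 (chr2:152344011-152344310, minus strand) and Nupr1 (chr7:126625421-126625720, minus strand), called genes with a match, read 5′ to 3′ along the gene as follows, with the match in capitals.
Asns promoter: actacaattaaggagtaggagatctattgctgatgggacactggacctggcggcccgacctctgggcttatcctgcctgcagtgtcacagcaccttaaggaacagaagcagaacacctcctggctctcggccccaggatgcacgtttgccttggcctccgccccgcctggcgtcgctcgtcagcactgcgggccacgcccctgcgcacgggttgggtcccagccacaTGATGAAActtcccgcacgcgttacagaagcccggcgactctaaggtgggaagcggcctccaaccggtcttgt
Trib3 promoter: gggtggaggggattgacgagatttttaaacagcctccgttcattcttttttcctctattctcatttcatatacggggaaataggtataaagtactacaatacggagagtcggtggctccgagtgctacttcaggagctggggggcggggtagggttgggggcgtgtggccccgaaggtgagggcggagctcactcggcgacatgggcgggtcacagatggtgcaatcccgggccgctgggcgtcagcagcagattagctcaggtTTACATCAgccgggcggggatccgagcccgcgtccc
Nupr1 promoter: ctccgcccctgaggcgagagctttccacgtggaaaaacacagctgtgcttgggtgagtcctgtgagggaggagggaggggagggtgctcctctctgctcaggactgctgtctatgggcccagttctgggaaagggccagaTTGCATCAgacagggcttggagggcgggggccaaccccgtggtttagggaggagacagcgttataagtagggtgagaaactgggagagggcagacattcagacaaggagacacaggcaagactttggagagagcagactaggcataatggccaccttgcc

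In Asns the match begins 23 bases before the start and reads along the gene, in Nupr1 it begins 110 bases before the start on the opposite strand, as in Atf3, and in Trib3 it lies after the start, at base 15 of the transcript, also on the opposite strand. Atf3 and Chac1, which carry a match and were not called, are shown as windows of 40 bases (chr1:191183420-191183459, minus strand, and chr2:119351033-119351072, plus strand), together with Jdp2 (chr12:85599367-85599406, plus strand) and the first of 2 matches in Slc7a11 (chr3:50443656-50443695, minus strand), both called higher. Vldlr, of the other outputs, also carries a match, which is not shown. It was not called (log2 fold change -0.43, edgeR adjusted p = 0.0762).
Atf3 window: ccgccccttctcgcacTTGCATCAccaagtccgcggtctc
Chac1 window: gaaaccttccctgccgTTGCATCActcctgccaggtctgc
Jdp2 window: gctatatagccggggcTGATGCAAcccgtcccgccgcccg
Slc7a11 window: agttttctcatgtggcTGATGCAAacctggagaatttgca

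Presence of the letters and a call did not go hand in hand within the core: 3 of 5 genes with a match and 3 of 5 without one (Atf4, Atf5 and Sesn2) were called higher, and Ddit4, the gene called lower, had no match. Among the related lists TGATGNAA was found in 5 of 9 promoters of tRNA synthetase genes, 3 of 11 of the amino acid enzymes, 2 of 6 of the transporters and 4 of 13 of the other outputs, and in 0 of 13 of the IRE1 and ATF6 branches. These shares were not tested.

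The change with GPI was not equally large in every mouse. The median log2 ratio over the 10 core genes was 1.12 in M1, 0.63 in M2, 1.02 in M3, 0.91 in M4 and 0.50 in M5. Over all tested genes it ran from 0.00559 in M3 to 0.0236 in M4. M5 had the smallest ratio of the 5 mice for Atf5, Asns, Sesn2 and Chac1, and M2 had the smallest for Atf4, Atf3 and Ddit3. After the treatment means were taken out, Pearson correlations between core genes over the 10 libraries ran from -0.613 for Asns and Ddit4 to 0.886 for Atf3 and Chac1 among 45 pairs. Ddit3 went with Atf3 (r = 0.783) and Atf5 (r = 0.763), whereas Atf4 and Nupr1 hardly went together (r = 0.0228). These are descriptions over libraries that share mice.

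Outside the list, the tested gene closest to each core gene over the 10 libraries, by Pearson r of log2 normalized counts and with a mean of at least 50 counts, was Abca1 for Atf4 (r = 0.986), Heatr3 for Atf5 (r = 0.986), Aars for Sesn2 (r = 0.988), Rfwd3 for Asns (r = 0.985), Fzd8 for Nupr1 (r = 0.981) and Acaa2 for Trib3 (r = 0.971). For Ddit4 it was Gldn (r = 0.944), for Chac1 Wdr7 (r = 0.927), for Ddit3 Rps20 (r = 0.904) and for Atf3 Scfd1 (r = 0.876). The treatment difference enters each r, and the 10 libraries share mice.

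Cell-type markers moved with the same treatment, and each list is given by its sum of normalized counts in M1 to M5 and led by the gene with the most counts, not scaled by length. The 8 endothelial genes, led by Cdh5, summed to 7368, 7724, 6928, 8106 and 7158 with vehicle and 811, 977, 662, 533 and 684 with GPI, and 8 of 8 were called lower, with a median log2 fold change of -3.27. The 8 germ cell genes, led by Kit, summed to 1684, 2858, 2068, 2729 and 1503 with vehicle and 909, 711, 748, 960 and 923 with GPI, with 4 of 5 tested genes called lower and a median of -4.62. Kit, which makes up most of the sum with GPI, was not called (-0.16, edgeR adjusted p = 0.243). The 6 fetal Leydig genes, led by Hsd3b1, summed to 1463, 3035, 4247, 2211 and 5604 with vehicle and 10099, 10636, 16332, 18657 and 13579 with GPI, with 5 of 5 tested genes called higher and a median of 1.75. The endothelial and germ cell sums fell and the Leydig sum rose in every mouse, with no overlap between treatments. From RNA counts of whole gonads alone, fewer cells of a type and less RNA per cell cannot be told apart. The 8 Sertoli genes, led by Sox9, summed to 2302, 3323, 2443, 2914 and 3278 with vehicle and 2751, 4282, 4265, 5035 and 4090 with GPI, with 5 of 8 called higher and a median of 0.56. The 8 macrophage genes, led by Cd68, summed to 874, 613, 727, 654 and 600 with vehicle and 447, 370, 364, 200 and 226 with GPI, with 7 of 8 called lower and a median of -1.26, and the 7 erythroid genes, led by Hbb-y, to 1810, 2339, 4183, 3760 and 3271 with vehicle and 1805, 958, 924, 1055 and 2382 with GPI, with 6 of 7 called lower and a median of -1.59. The Sertoli sum was higher and the macrophage sum lower in all 5 mice, though in M1 only 4 of 8 Sertoli genes were higher, and the erythroid sum hardly moved in M1. The 8 interstitial genes, led by Pdgfra, summed to 16742, 18545, 19443, 16653 and 18545 with vehicle and 17516, 19580, 17922, 16748 and 20119 with GPI, with 1 called higher and 3 lower and a median of -0.10, and the 5 pre-granulosa genes, led by Wnt4, to 1791, 1859, 1825, 1585 and 1521 with vehicle and 1489, 1255, 1305, 985 and 1393 with GPI, with 1 called in each direction and a median of -0.19. The 4 mesonephros genes, led by Pax8, the only one tested, summed to 557, 119, 270, 137 and 59 with vehicle and 177, 226, 114, 109 and 95 with GPI. The vehicle-treated testis of M1 had the highest of these sums, so equally complete removal of the mesonephros in all libraries cannot be taken for granted. No marker was at 0 in all 10 libraries, though in single libraries Insl3, Pou5f1, Nanos2, Tfap2c, C1qa, Pax2, Lhx1 and Cdh16 were. The part of these shifts in cell-type RNA in the changes of the core genes was not tested.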

How the data were processed

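RNA of 10 cultured testes was amplified and sequenced as read pairs. The authors mapped them to mm10 with STAR (version 2.5 in the submitters' processing notes), counted them per gene without regard to strand with featureCounts (Subread 1.5.0-p1), and deposited raw counts for 24470 entries, which are the input here; the table holds 0 other value columns. Since amplified reads can repeat a molecule, errors rest on the libraries and not on single reads. With the mouse in the design, they rest on how the difference between treatments varied from mouse to mouse. Differences in level between mice are taken up by the mouse term.

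Genes were filtered by filterByExpr (minimum count 10, minimum total 15), which set aside 10529, scaled by TMM and tested by edgeR 4.0.16 in R 4.3.3 with mouse and treatment in the design; SE is the size of the log2 fold change over the root of its F statistic. Ratios in single mice are log2 of normalized counts plus 2. Lengths are the longest GENCODE M21 transcript paired with a RefSeq mRNA.

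The labels give the gonads of 1 embryo the same number. Deviations from the treatment mean correlated at 0.06 on average within a mouse and -0.0147 between mice (p = 0.05 in a one-sided exact permutation test of all 120 pairings), and libraries of a treatment were not duplicates (chi-square per degree of freedom from 6.42 to 27.81).

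The 10 members and the 24 other lists were chosen with earlier results of these data known, and 2 marker genes (1 of the erythroid and 1 of the mesonephros list) were taken out after the values were seen, for a reason unrelated to their values; the other lists are whole. Genes named singly were drawn, not in full, from the members, any gene of the kinase, attenuator and paralog lists, the first gene and the 3 smallest p of each other list, the marker with the most counts, and each member's closest gene; other names complete a count of 5 or fewer or an overlap and were chosen after their values were seen.

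Alternatives were DESeq2 1.42.0, limma-voom (limma 3.58.1), each mouse left out, no replicate block, a prior count of 2, scaling by total counts only or by DESeq2 size factors, and a low-count filter of at least 10 counts per library or no such filter.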

Additional observations from a re-analysis of the deposited data

Results flagged for a closer look

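In 20 groups of 5 libraries (10 core genes, each with vehicle and with GPI), the gap of the extreme library to its neighbor was compared with the range by Dixon's criterion, by which chance marks about 1 group in 20. In 3 groups the extreme library stood apart: with vehicle M5 for Atf4 at 1509 normalized counts (the others 1255 to 1325), M1 for Chac1 at 88.6 (the others 132.5 to 149.6) and M2 for Ddit4 at 729 (the others 596.5 to 617). The gap was 0.727, 0.72 and 0.847 of the range in these groups, and 0.71, right at the limit, for the GPI-treated testis of M1 in Nupr1 (98.5). No cause was tested.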

How the results depend on the processing

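The count of core genes called higher was 6 or 7 under all alternatives except with at least 10 counts required in every library, where it was 4 because Trib3 and Nupr1 were not tested; 1 was called lower throughout. With no replicate block, which disregards the pairing, 6 core genes were called higher and 1 lower, and among all genes 1498 higher and 1610 lower; the named genes whose calls changed without the block are given beside their results. Leaving out 1 mouse, the genes called higher ranged from 969 (without M3; 1024 without M4) to 1430, and the genes called lower from 1287 to 1686.

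Over the alternatives for each core gene, the direction changed for Atf3 (-0.0699) and Ddit3 (-0.00523) without M1, with leave-out ranges of -0.0699 to 0.24 and -0.00523 to 0.49. Log2 fold changes near 0 also changed sign elsewhere: Eif2ak4 without single mice (-0.18 to 0.0173), Pycr1 with no replicate block (0.0261) and without single mice (-0.41 to 0.19), Wars without single mice (-0.18 to 0.0674), Car9 with DESeq2 (-0.000222), with total counts only (-0.0378) and without single mice (-0.30 to 0.45), and Nup62 with total counts only (-0.0144) and without single mice (-0.0151 to 0.10). Causes were not tested. Low counts limit Trib3 and Nupr1, which had fewer than 40 normalized counts in each vehicle library.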
